A study of Mus musculus with 6 samples.

Results

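ETn, MMERVK and the other names examined here belong to the ERVK group of mouse endogenous retroviruses, and they were taken from the repeat count table by a rule on their names, set with earlier results of these data known. All names that held ETn in any case, or that began with MMERVK, MYSERV, MMTV, ERVB, RLTR9, RLTR13, RLTR17, RLTR20, RLTR44 or RLTR45, were taken, which gave 97 of the 1067 names in the table. Of these, 22 were internal names, which stand for the part of the element between its ends, and 75 were names of long terminal repeats (LTRs). A name pools the reads of all copies of that element in the genome, so no genome position can be given for it. The IAP names, which are also ERVK elements, were not among the members.

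Endogenous retroviruses are remnants of germline infections that are copied through RNA, and an intact element carries an LTR at each end. The LTR holds the promoter and the internal part holds the retroviral genes or what is left of them. Many LTRs stand alone in the genome after the internal part was lost by recombination, and several LTR classes are known as tissue-specific promoters or enhancers. In somatic cells ERVK elements are kept silent mainly by DNA methylation, which DNMT1 copies onto the new strand after replication.

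Poly(A) RNA was sequenced from cultured keratinocytes of 3 control and 3 Dnmt1Δ/Δep mice, all female, taken at postnatal day 3 and kept in keratinocyte growth medium for 5 days, the time in the labels and methods (a figure legend of the study gives a shorter one). The Dnmt1Δ/Δep mice carried K5-Cre and 2 floxed Dnmt1 alleles (Dnmt1 f/f), and the controls were Dnmt1 f/f or Dnmt1 f/+ without Cre, so the groups also differed in the presence of Cre. The labels do not say which of the 2 control genotypes a library came from. K5-Cre acts in keratin 5-expressing epithelium, and cells of other kinds in the culture would keep Dnmt1. The comparison asks which ERVK elements changed in RNA level after loss of DNMT1 in the keratinocytes themselves.

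The libraries held between 53433121 and 115526598 reads on genes and between 4940679 and 28673709 reads on repeats. Repeat reads numbered 8.87 to 12.2 per 100 gene reads in control and 22.7 to 28.1 in Dnmt1Δ/Δep libraries. Dnmt1 (chromosome 9, 20907209 to 20959888 of GRCm38, minus strand) was at 394, 379 and 324 CPM (counts scaled to the library size) of gene reads in control and at 49.7, 54.3 and 50.7 in Dnmt1Δ/Δep libraries, a log2 fold change of -2.83 (adjusted p = 8.1e-05). All 9 keratinocyte markers were present, with summed levels of 30324 to 34073 CPM in control and 22848 to 23275 CPM in Dnmt1Δ/Δep libraries. The summed level of 4 melanocyte markers was 145 to 376 against 444 to 584 CPM, that of 4 leukocyte markers 0.0106 to 0.261 against 0.254 to 0.839 CPM, that of 4 fibroblast markers 8.88 to 18.8 against 9.01 to 44.0 CPM, and that of the 2 endothelial markers 1.56 to 3.21 against 10.4 to 14.4 CPM. None of these markers was at 0 in all libraries, both endothelial markers were called upregulated, and the part of these cells in the repeat results was not tested. In such bulk samples more transcript per cell and more cells with the transcript cannot be told apart.

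A repeat name was called upregulated at an adjusted p of 0.05 or less (edgeR's quasi-likelihood test, Benjamini-Hochberg adjustment over the 938 names tested) and a change of at least 2-fold. Of the 97 names, 96 passed the filter on low counts and 16 (16.7%) were upregulated, whereas 8.21% of all tested names were. None was downregulated by edgeR (0% of all tested names), and none had an unadjusted p under 0.05 with a lower level in Dnmt1Δ/Δep (7.57% of all tested names had). Only RLTR9A4 was not tested, with 4, 7 and 3 reads in control and 12, 2 and 12 in Dnmt1Δ/Δep libraries. With the adjusted p alone and no limit on size, 18 of the 96 names rose and none fell (9.91% and 0.746% of all names tested). Replicate numbers pair the libraries, and in the fit with a replicate block 34 rose and 4 fell past the adjusted p (16.8% and 10.3% of all names), while 18 rose at least 2-fold. The 4 that fell in the blocked fit were ETnERV2-int (-0.41, adjusted p = 0.022), ERVB2_1A-I_MM-int (-0.45, adjusted p = 0.036), RLTR13D1 (-0.48, adjusted p = 0.032) and RLTR17B_Mm (-0.33, adjusted p = 0.035). Without the block and with library sizes from gene reads these 4 were at -0.04, -0.13, -0.07 and 0.03, in the same order, and none passed the adjusted p. With upper-quartile factors and no block ETnERV2-int was at -0.65 (adjusted p = 0.032) and RLTR17B_Mm at -0.57 (adjusted p = 0.03), and both passed it. The median log2 fold change was 0.23 over the 96 names and -0.05 over all names tested. Levels are given below as CPM of the normalized repeat reads, a scale on which names of different length cannot be compared, and all fold changes are Dnmt1Δ/Δep over control.

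**Figure D1:**
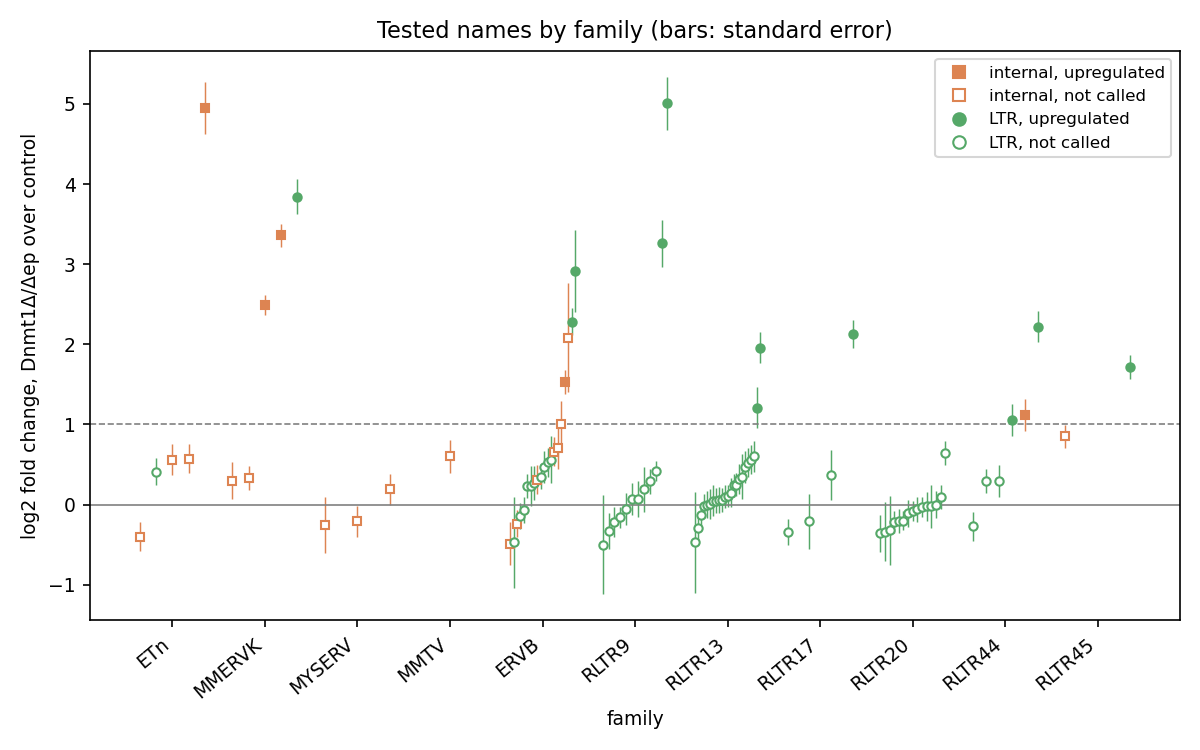
Log2 fold change (Dnmt1Δ/Δep over control, vertical axis) of the 96 tested names by family, with bars for the standard error; squares are internal names, circles are LTR names, filled symbols were called upregulated and the dashed line marks a 2-fold rise. In most families 1 to 3 names stand well above a group of names close to 0, and in MYSERV, MMTV and RLTR20 no name was called.

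The upregulated names were spread over 8 of the 11 families. They were 5 of 22 internal names and 11 of 74 tested LTR names, with medians over all tested internal and LTR names of 0.58 and 0.10. Every one of the 16 was higher in Dnmt1Δ/Δep than in control in each of the 3 pairs with the same replicate number, and 14 were more than 2-fold higher in every pair. Levels of the groups did not overlap, with Dnmt1Δ/Δep higher, for 34 of 96 names against 18.3% of all names tested, and with Dnmt1Δ/Δep lower for 1 name, ERVB3_1-LTR_MM, against 13.4%. The control level of the called names ranged from 0.166 to 456 CPM with a median of 37.9 CPM, and that of the other names from 3.52 to 4456 CPM with a median of 42.2 CPM. Across the 96 names, which are not independent of each other, the log2 fold change and the log control level had a Pearson r of -0.13 and a Spearman rho of -0.11.

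**Figure D2:**
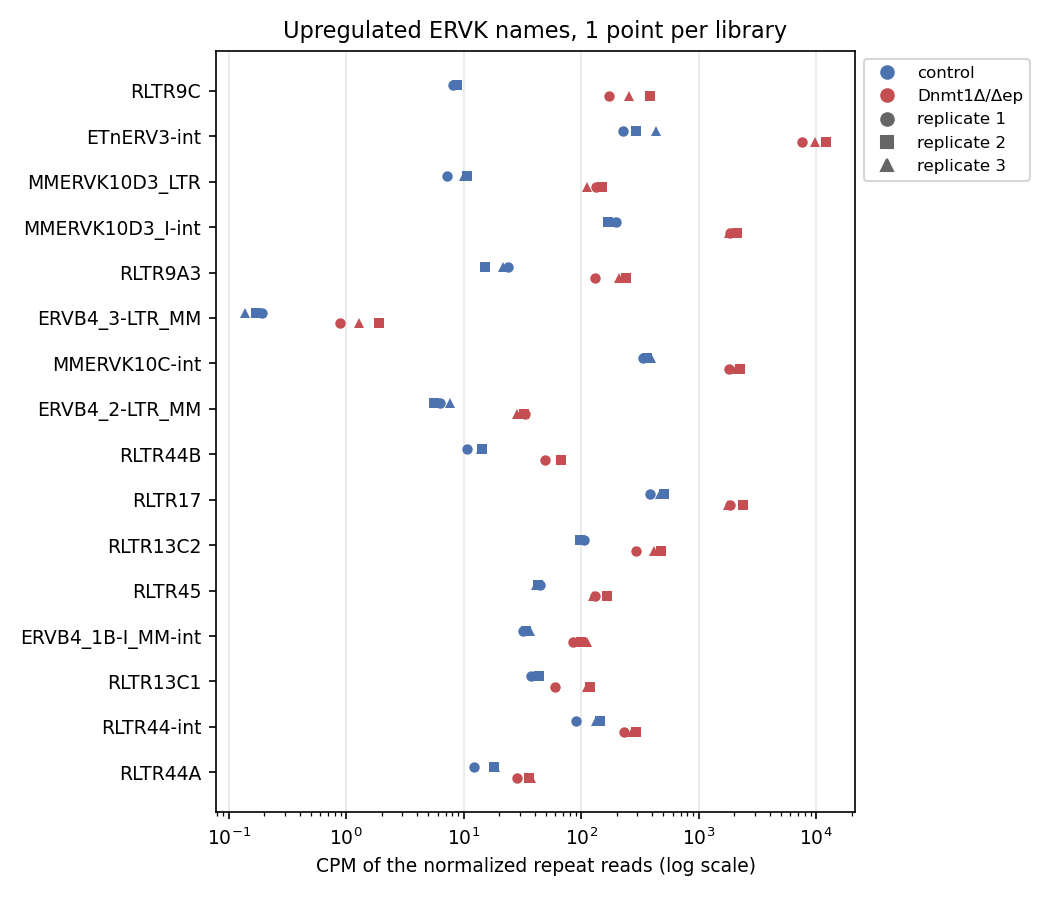
Level in CPM of the normalized repeat reads (horizontal log axis) of the 16 upregulated names in each of the 6 libraries, with symbol shape for the replicate and colour for the group. In each row the 3 Dnmt1Δ/Δep libraries lie to the right of the 3 control libraries, and the gap is widest for RLTR9C and ETnERV3-int.

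ETn elements are early transposons without coding capacity that move with the proteins of their relatives, the MusD elements, which the ETnERV names stand for, and both are known as a source of insertional mutations in mice. Of the 5 ETn names only ETnERV3-int was upregulated. It was at 227, 292 and 431 CPM in control and at 7582, 12152 and 9702 CPM in Dnmt1Δ/Δep libraries. The lowest Dnmt1Δ/Δep library was far above the highest control library, and the log2 fold change was 4.95 (SE 0.32, adjusted p = 2.9e-05). 

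The other ETn names held most of the ETn reads in control. MMETn-int was at 4469, 5251 and 3647 CPM in control and at 5455, 7209 and 7126 CPM in Dnmt1Δ/Δep libraries, with a log2 fold change of 0.57 (SE 0.18, adjusted p = 0.10). ETnERV-int was at 2437, 3020 and 2042 CPM against 2956, 4144 and 3986 CPM, with 0.56 (SE 0.19, adjusted p = 0.12). The levels of MMETn-int did not overlap between the groups and those of ETnERV-int did, and neither name passed the adjusted p in the fit of all libraries without the block. Both passed it with library sizes from gene reads (0.92 each, adjusted p = 0.023 and 0.021) and without control replicate 2 (0.047 and 0.046). With the replicate block both passed the adjusted p at a log2 fold change of 0.57 (0.028 for MMETn-int and 0.025 for ETnERV-int), as did RLTRETN_Mm (0.42, adjusted p = 0.021) and ETnERV2-int in the other direction, all within the 2-fold limit. The single LTR name of the family, RLTRETN_Mm, had a log2 fold change of 0.41 (adjusted p = 0.19). ETnERV2-int had a fitted log2 fold change of -0.40 (adjusted p = 0.24), and its levels of 1825, 2417 and 2095 CPM in control overlapped with 1232, 1843 and 1734 CPM in Dnmt1Δ/Δep libraries.

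**Figure D3:**
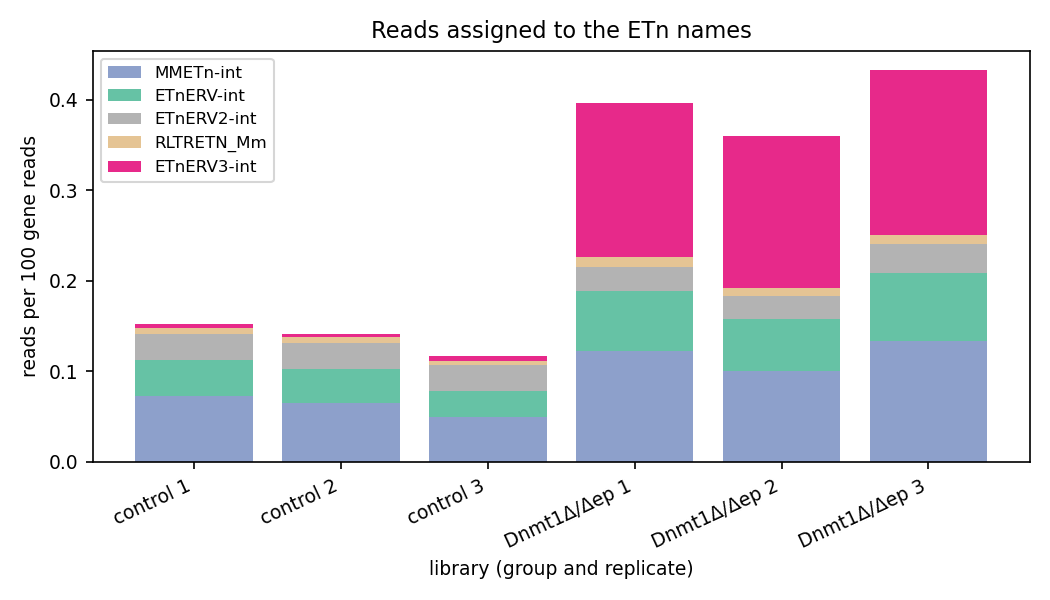
Reads assigned to the 5 ETn names per 100 reads on genes (vertical axis, from 0) in each of the 6 libraries, stacked by name. The uppermost segment, ETnERV3-int, is a thin strip in the control libraries and makes up 42.0% to 46.8% of the ETn reads in the Dnmt1Δ/Δep libraries.

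The make-up of the ETn RNA was compared within each library, where no scaling is needed. ETnERV3-int took 2.42%, 2.55% and 5.04% of ETn reads in control and 42.8%, 46.8% and 42.0% in Dnmt1Δ/Δep libraries. Its log2 ratio to the other 3 internal names was -5.27, -5.19 and -4.17 in control and -0.35, -0.12 and -0.41 in Dnmt1Δ/Δep libraries, a difference of 4.59. ETnERV3-int was set against the other names with its rise known, so this ratio restates that rise without scaling and is given with no test. Control replicate 3 had the highest ETnERV3-int share among the controls. Over the whole family, ETn reads per 100 gene reads were 0.152, 0.141 and 0.117 in control and 0.396, 0.36 and 0.432 in Dnmt1Δ/Δep libraries, 2.90-fold higher in the means.

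MMERVK elements are younger retrovirus-like families, and MMERVK10C is among the ERVK classes known to respond to loss of the silencing machinery. Of 5 MMERVK names, 3 were upregulated, and the median log2 fold change of the 5 was 2.49. MMERVK10D3_I-int was at 198, 168 and 195 CPM in control and at 1855, 2125 and 1800 CPM in Dnmt1Δ/Δep libraries (log2 fold change 3.36, SE 0.14, adjusted p = 8.2e-06). Its LTR, MMERVK10D3_LTR, was at 7.16, 10.7 and 9.98 CPM against 134, 151 and 111 CPM (3.84, SE 0.22, adjusted p = 1.5e-05). Internal part and LTR of MMERVK10D3 therefore both rose more than 8-fold in every pair of libraries.

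MMERVK10C-int was at 334, 361 and 394 CPM in control and at 1804, 2237 and 2060 CPM in Dnmt1Δ/Δep libraries (2.49, SE 0.13, adjusted p = 1.1e-05). MMERVK9C_I-int had a log2 fold change of 0.33 (adjusted p = 0.23) and MMERVK9E_I-int one of 0.30 (adjusted p = 0.46). The levels of these 2 names overlapped between the groups, at 769 to 949 against 899 to 1161 CPM for MMERVK9C_I-int and at 213 to 392 against 321 to 385 CPM for MMERVK9E_I-int. MMERVK reads per 100 gene reads rose from 0.0239 ± 0.00424 to 0.0997 ± 0.0154 (SD, n = 3 each), without overlap (two-sided exact permutation test, p = 0.1, the smallest that 3 against 3 libraries allow, adjusted over the 11 families 0.14). The 3 called names held 33.1% of these reads in control and 74.2% in Dnmt1Δ/Δep. These names were picked by their rise, so this share restates it.

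None of the 3 MYSERV names, which stand for an older rodent family, passed the test. MYSERV-int was at 280, 114 and 129 CPM in control and at 179, 129 and 133 CPM in Dnmt1Δ/Δep libraries (-0.25, SE 0.35, adjusted p = 0.69), and the value was 0.24 without control replicate 1. MYSERV6-int (-0.21, adjusted p = 0.54) and MYSERV16_I-int (0.19, adjusted p = 0.57) were highest in replicate 1 of both groups, and both overlapped between the groups. MMTV-int, the internal part of endogenous mouse mammary tumor virus, was low, at 10.1, 11.5 and 15 CPM in control and 17.2, 15.9 and 21.8 CPM in Dnmt1Δ/Δep libraries. Its groups did not overlap, yet the log2 fold change of 0.60 (SE 0.20) did not pass the test (adjusted p = 0.12). With the replicate block it was 0.59 (adjusted p = 0.016).

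The 20 ERVB names cover several retroviral lineages, and 3 of them, all of the ERVB4 lineage, were upregulated. ERVB4_2-LTR_MM was at 6.26, 5.56 and 7.65 CPM in control and at 33.2, 32.5 and 28.2 CPM in Dnmt1Δ/Δep libraries (2.28, SE 0.17, adjusted p = 6.7e-05). ERVB4_1B-I_MM-int was at 31.7, 33.9 and 36.6 CPM against 84.4, 99.2 and 112 CPM (1.53, SE 0.15, adjusted p = 3.3e-04). Both were separated between the groups by far more than the spread within a group. ERVB4_3-LTR_MM was the rarest, with 3, 2 and 1 reads in control and 12, 23 and 28 in Dnmt1Δ/Δep libraries. The ratio of its summed levels was 7.74, with a 95% interval for counting error alone of 3.37 to 21.9 (adjusted p = 0.0082). Its control counts were at or under the floor of 3 reads, so it passed the low-count filter only through its Dnmt1Δ/Δep libraries. Its entry to the test therefore depended on the libraries where it is high. It did not pass that filter when Dnmt1Δ/Δep replicate 2 or 3 was left out.

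Other names of the ERVB4 lineage were not called. ERVB4_1-I_MM-int was at 27.4, 53.2 and 56.2 CPM in control and 70.2, 106 and 95.2 CPM in Dnmt1Δ/Δep libraries, without overlap, and its log2 fold change of 1.0 (SE 0.29) missed the threshold (adjusted p = 0.082). In the fit with a replicate block it was 1.04 (adjusted p = 9.4e-04). ERVB4_2-I_MM-int had 0.66 (adjusted p = 0.062), ERVB4_3-I_MM-int -0.24 (adjusted p = 0.41) and ERVB4_1-LTR_MM 0.27 (adjusted p = 0.47). The levels of ERVB4_2-I_MM-int did not overlap between the groups. It passed the adjusted p with the replicate block (0.68, adjusted p = 0.003) and with DESeq2 (0.65, adjusted p = 0.022), within the 2-fold limit. It did not with upper-quartile factors (adjusted p = 0.13) or with no filter (adjusted p = 0.078). 

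ERVB2_1-I_MM-int had the largest change among the names that were not called. It was at 10.2, 1.77 and 1.09 CPM in control and at 26.4, 16.4 and 16.5 CPM in Dnmt1Δ/Δep libraries, so that all Dnmt1Δ/Δep values exceeded all control values and the control replicate 1 value lay far above the other 2. The log2 fold change was 2.08 (SE 0.68, adjusted p = 0.11), and without control replicate 1 it was 3.68 (adjusted p = 4.1e-04). With the replicate block it was 2.35 (adjusted p = 0.004). ERVB2_1A-I_MM-int, its nearest name, had -0.49 (adjusted p = 0.31).

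ERVB7_1-LTR_MM held the most reads of the ERVB names. It was at 345, 454 and 269 CPM in control and at 457, 571 and 456 CPM in Dnmt1Δ/Δep libraries, just without overlap, with a log2 fold change of 0.47 (SE 0.20, adjusted p = 0.22). With the replicate block it was 0.50 (adjusted p = 0.013), and without control replicate 2 it was 0.70 (adjusted p = 0.044). ERVB5_1-I_MM-int was at 23.6, 14.1 and 11.8 CPM against 24.4, 32.3 and 24.9 CPM, also without overlap, and control replicate 1 lay close to the Dnmt1Δ/Δep libraries. Its log2 fold change was 0.71 (SE 0.27, adjusted p = 0.16), and without control replicate 1 it was called at 1.01 (adjusted p = 0.01).

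The RLTR9 names are LTRs, some of which are known to be bound by pluripotency factors in embryonic stem cells. Of the 12 tested, 2 were upregulated. RLTR9C was at 8.12, 8.68 and 8.47 CPM in control and at 173, 386 and 256 CPM in Dnmt1Δ/Δep libraries (5.01, SE 0.33, adjusted p = 3.2e-05), next to 4.95 for ETnERV3-int. The order of these 2 turned in some settings, such as the replicate block (4.93 for RLTR9C and 4.98 for ETnERV3-int), and they cannot be ranked. RLTR9A3 was at 23.8, 15.3 and 21.6 CPM against 130, 242 and 210 CPM (3.26, SE 0.29, adjusted p = 1.7e-04). Control values of RLTR9C lay close together while its Dnmt1Δ/Δep values differed 2.24-fold, the widest spread of the 16 called names, and both RLTR9 names were lowest in Dnmt1Δ/Δep replicate 1. RLTR9C and RLTR9A3, picked by their rise, held 7.55% of the reads of the RLTR9 names in control and 55.9% in Dnmt1Δ/Δep, which restates that rise. The other 10 tested names ranged from -0.50 (RLTR9F) to 0.42 (RLTR9E, adjusted p = 0.069). The levels of RLTR9E did not overlap between the groups. It passed the adjusted p with the replicate block (0.42, adjusted p = 0.021) and with DESeq2 (0.41, adjusted p = 0.022), within the 2-fold limit, and in no other alternative.

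Of the 23 RLTR13 names, of which some are known as enhancers in trophoblast cells, 2 were upregulated. RLTR13C2 was at 105, 97.0 and 101 CPM in control and at 291, 473 and 413 CPM in Dnmt1Δ/Δep libraries (1.96, SE 0.19, adjusted p = 3.0e-04). RLTR13C1 was at 37.7, 44.0 and 43.3 CPM against 59.7, 119 and 111 CPM (1.21, SE 0.26, adjusted p = 0.022). Dnmt1Δ/Δep replicate 1 was lowest for both, and RLTR13C1 lost its call without Dnmt1Δ/Δep replicate 2 (adjusted p = 0.074) or 3 (0.097). The third name of the same series, RLTR13C3, was at 51.1, 58.1 and 57.7 CPM against 49.5, 65.5 and 59.1 CPM (0.06, adjusted p = 0.83), a range that overlapped fully.

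RLTR17 was at 386, 510 and 472 CPM in control and at 1842, 2365 and 1765 CPM in Dnmt1Δ/Δep libraries (2.13, SE 0.17, adjusted p = 1.0e-04). The other 3 RLTR17 names were not called: RLTR17B_Mm had -0.34 (adjusted p = 0.24), RLTR17D_Mm -0.21 (adjusted p = 0.74) and RLTR17C_Mm 0.37 (adjusted p = 0.50). RLTR17B_Mm held the most reads of the 4 in control, at 1561, 1154 and 1219 CPM, and was at 1170, 1014 and 929 CPM in Dnmt1Δ/Δep libraries, so the groups overlapped. RLTR17 itself, picked by its rise, went from 24.1% to 62.6% of the reads of its family, which restates that rise.

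None of the 15 RLTR20 names was called, and their log2 fold changes ran from -0.36 (RLTR20B4_MM) to 0.64 (RLTR20A2). RLTR20A2 was at 10.7, 10.4 and 11.2 CPM in control and 16.6, 14.7 and 18.8 CPM in Dnmt1Δ/Δep libraries (SE 0.15). These values did not overlap and passed the adjusted p alone (0.033), not the 2-fold limit. The adjusted p ran from 0.013 with the replicate block to 0.17 without control replicate 2, and it was over the threshold with gene library sizes (0.055), with upper-quartile factors (0.11), with no filter (0.055) and in 5 of 6 fits that left out 1 library. RLTR20C1_MM, the name with the most reads, had -0.21 (adjusted p = 0.43). The RLTR20 reads per 100 gene reads overlapped, at 0.0154 to 0.0205 in control and 0.0159 to 0.0234 in Dnmt1Δ/Δep libraries, and were higher in Dnmt1Δ/Δep in every pair.

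In the RLTR44 family 3 of 6 names were upregulated. RLTR44B was at 10.7, 14.4 and 14.1 CPM in control and at 49.0, 66.7 and 67.0 CPM in Dnmt1Δ/Δep libraries (2.22, SE 0.19, adjusted p = 1.6e-04). RLTR44-int was at 90.1, 143 and 133 CPM against 233, 290 and 271 CPM (1.12, SE 0.20, adjusted p = 0.008), and RLTR44A was at 12.3, 18.2 and 18.6 CPM against 28.4, 36.1 and 37.3 CPM (1.06, SE 0.20, adjusted p = 0.012). All 3 were lowest in replicate 1 of both groups and did not overlap. Without control replicate 1, RLTR44-int (0.89) and RLTR44A (0.83) fell under the 2-fold limit, and RLTR44A also lost its call without Dnmt1Δ/Δep replicate 3 (adjusted p = 0.062). RLTR44C (-0.27), RLTR44D (0.29) and RLTR44E (0.29) were not called.

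Both RLTR45 names were higher in Dnmt1Δ/Δep. RLTR45 was at 44.4, 42.6 and 41.4 CPM in control and at 132, 166 and 125 CPM in Dnmt1Δ/Δep libraries (1.72, SE 0.15, adjusted p = 1.7e-04). RLTR45-int was at 190, 236 and 202 CPM against 337, 410 and 383 CPM, and its log2 fold change of 0.85 (SE 0.14, adjusted p = 0.005) passed the adjusted p and not the 2-fold limit. Neither name overlapped between the groups.

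**Figure D4:**
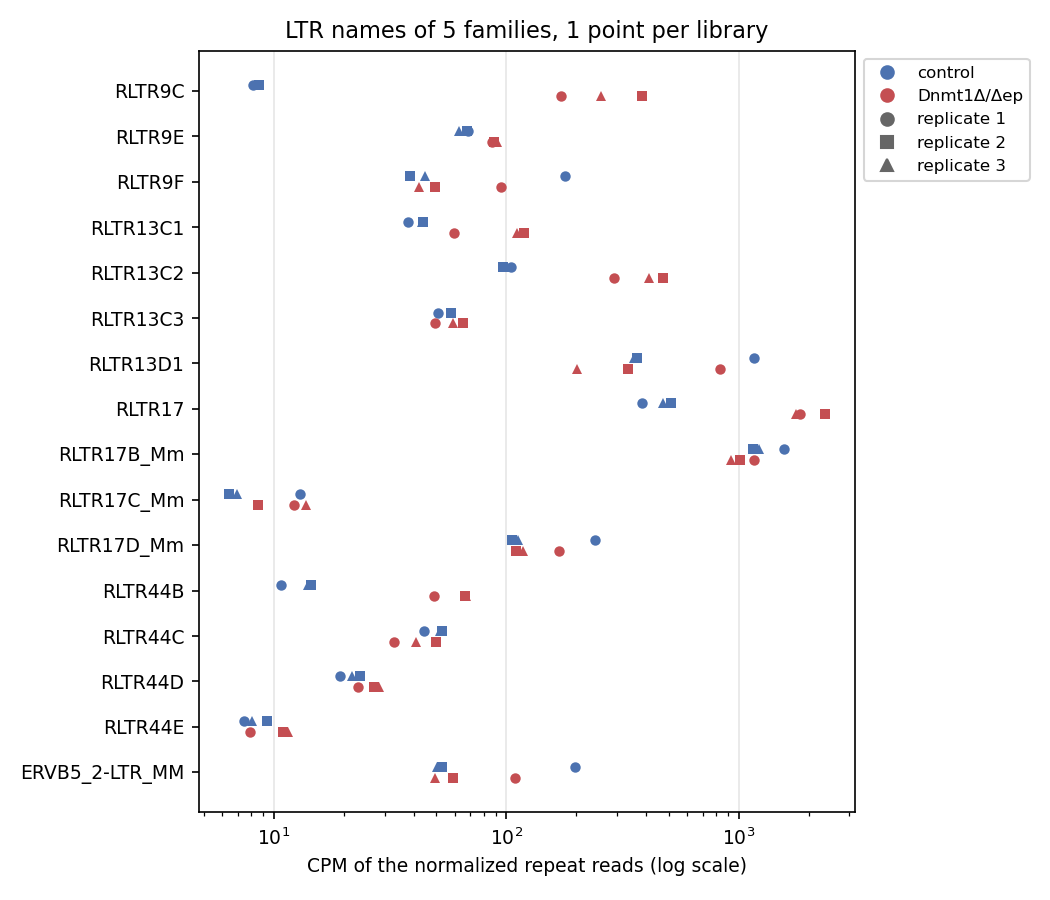
Level in CPM of the normalized repeat reads (horizontal log axis) of 16 LTR names from the RLTR9, RLTR13, RLTR17, RLTR44 and ERVB families in each of the 6 libraries, with shape for the replicate and colour for the group. RLTR9C, RLTR13C1, RLTR13C2, RLTR17 and RLTR44B are separated between the groups, as is RLTR9E by a narrower gap, and the other names shown overlap. RLTR9F, RLTR13D1 and ERVB5_2-LTR_MM are highest in replicate 1 of both groups.

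LTR and internal names were compared within libraries in the 10 families or subfamilies that had both. The LTR share of the reads rose without overlap in 3, fell without overlap in 4 and overlapped in 3, each non-overlapping difference having the smallest exact permutation p of 0.1 (0.14 adjusted over the 10). It rose in RLTR45 from 17.1% ± 1.81 to 27.2% ± 2.28, in ERVB4_2 from 4.69% ± 1.5 to 12.6% ± 1.52 and in ERVB4_3 from 0.644% ± 0.175 to 5.71% ± 1.25 (SD, n = 3 each). The control shares of ERVB4_3 rest on only 3, 2 and 1 LTR reads. Its LTR name passed the low-count filter only through the Dnmt1Δ/Δep libraries, so this rise is weakly based. In these 3 the LTR name was called and the internal name was not. With library sizes from gene reads RLTR45-int (1.22, adjusted p = 0.003) and ERVB4_2-I_MM-int (1.04, adjusted p = 0.012) were called as well.

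The LTR share fell in ETn from 4.20% ± 0.234 to 2.49% ± 0.265, in RLTR44 from 47.6% ± 3.06 to 39.3% ± 1.46, in ERVB3_1 from 61.0% ± 0.253 to 53.5% ± 1.15 and in ERVB4_1B from 88.5% ± 1.79 to 75.8% ± 2.22. The ETn internal reads include those of ETnERV3-int, so the ETn fall restates at least in part the known rise of that name. The ETn share without ETnERV3-int was not tested. In ERVB4_1B the internal name was the one called, and ERVB4_1B-LTR_MM had a log2 fold change of 0.23 (adjusted p = 0.40). In MMERVK10D3, where both were called, the share was 3.48%, 5.99% and 4.86% in control and 6.72%, 6.64% and 5.81% in Dnmt1Δ/Δep libraries, an overlap of the groups (exact permutation p = 0.2). ERVB4_1 and ERVB5_1 overlapped as well. Between libraries of the same replicate number the share rose in every pair in MMERVK10D3 and fell in every pair in ERVB4_1, and the pairs of ERVB5_1 differed in sign.

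MMERVK10C-int has its LTR under another name, RLTR10C, which is no member and is given for comparison. RLTR10C was at 60.0, 79.2 and 72.4 CPM in control and at 87.9, 99.1 and 108 CPM in Dnmt1Δ/Δep libraries (0.48, SE 0.16, adjusted p = 0.10). The groups did not overlap, and RLTR10C was not called while MMERVK10C-int was. Its share of the reads of the 2 names was 15.2%, 18.0% and 15.5% in control and 4.64%, 4.24% and 5.00% in Dnmt1Δ/Δep libraries. Over all 97 names, with ETnERV3-int among the internal ones, the LTR names took 38.3% ± 3.47 of the reads in control and 26.8% ± 2.64 in Dnmt1Δ/Δep.

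**Figure D5:**
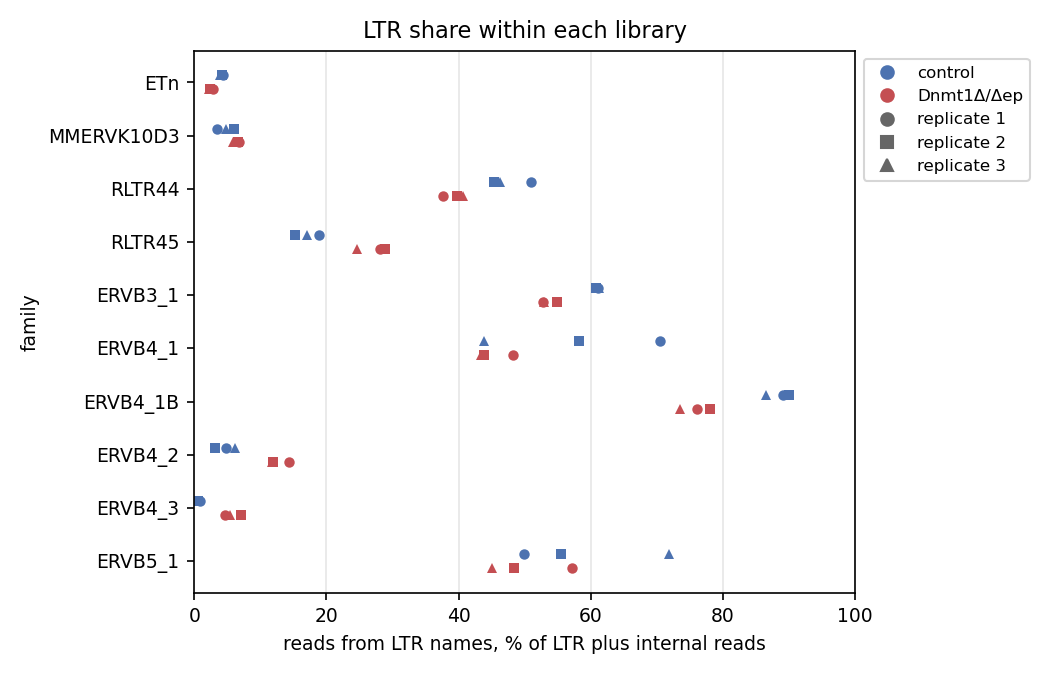
Reads of the LTR names as a percentage of the reads of LTR and internal names together (horizontal axis) in each library, for the 10 families or subfamilies that have both, with shape for the replicate and colour for the group. The Dnmt1Δ/Δep libraries lie to the right of control in RLTR45, ERVB4_2 and ERVB4_3, to the left in ETn, RLTR44, ERVB3_1 and ERVB4_1B, and overlap in the other families.

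Summed over all 97 names, the ERVK reads per 100 gene reads were 0.342, 0.265 and 0.245 in control and 0.763, 0.616 and 0.742 in Dnmt1Δ/Δep libraries, 2.49-fold higher in the means (exact permutation p = 0.1). As a share of repeat reads the same names were at 2.81% in both groups. The reads on all repeats were also more numerous in Dnmt1Δ/Δep, and the IAP names went from 1.97% to 34.8% of repeat reads. Reads per 100 gene reads did not overlap, with Dnmt1Δ/Δep higher, in ETn, MMERVK (4.16-fold), MMTV (1.98-fold), ERVB (1.68-fold), RLTR9 (2.65-fold), RLTR17 (2.1-fold), RLTR44 (2.46-fold) and RLTR45 (2.65-fold), each at an adjusted p of 0.14. They overlapped in MYSERV (1.2-fold), RLTR13 (1.56-fold) and RLTR20 (1.15-fold), although in each of these families Dnmt1Δ/Δep was higher in every pair with the same replicate number. The pairs were not tested. As shares of repeat reads, MYSERV, MMTV, ERVB, RLTR13, RLTR17, RLTR20 and RLTR44 were lower in Dnmt1Δ/Δep in the means.

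A few names were far higher in replicate 1 of both groups than in the other libraries. RLTR13D1 was at 1162, 367 and 356 CPM in control and at 832, 333 and 202 CPM in Dnmt1Δ/Δep libraries. RLTR9F was at 179, 38.5 and 44.6 CPM against 94.9, 49.6 and 42.3 CPM, and ERVB5_2-LTR_MM at 197, 52.8 and 50.6 CPM against 109, 59.1 and 49.2 CPM. In these 3 names replicate 1 reached at least 2 times the mean of the other 2 libraries in both groups, which was so for 3.12% of the members and 0.746% of all names, and for no member in replicate 2 or 3. The libraries of a replicate number were run on 1 sequencing lane, and the part of the lane in these values was not tested. None of the 3 was called. RLTR13D1 was also lower in Dnmt1Δ/Δep in each of the 3 pairs, and it passed the adjusted p in the blocked fit (-0.48, adjusted p = 0.032), whereas RLTR9F (-0.23, adjusted p = 0.47) and ERVB5_2-LTR_MM (-0.26, adjusted p = 0.34) did not.

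A list of 34 genes was examined beside the repeats, and all passed the filter. They act in silencing or restricting retroelements, in setting DNA methylation or, for the 3 TET genes, in oxidising methylated cytosine. Of these, 2 were upregulated and Dnmt1 alone was downregulated, against 6.03% and 0.392% of the 16829 genes tested, and the median log2 fold change of the list was -0.08 against 0.00 over all genes. Apobec3 (chromosome 15, 79891659 to 79915906), a cytidine deaminase that restricts retroviruses, was at 10.4, 13.4 and 16.3 CPM of gene reads in control and at 57.1, 61.1 and 70.9 CPM in Dnmt1Δ/Δep libraries (2.24, adjusted p = 7.9e-04). Suv39h2 (chromosome 2, 3455815 to 3475031), a histone H3 lysine 9 methyltransferase, was at 19.3, 15 and 14.1 CPM against 49.0, 33.9 and 43.2 CPM (1.38, adjusted p = 0.0046). Neither gene overlapped between the groups.

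No other gene of the list was called, although 4 passed the adjusted p within the 2-fold limit. With the adjusted p alone 3 of the 34 genes rose and 4 fell, against 7.71% and 1.66% of all genes tested. Zfp809, a zinc-finger gene known for retroviral silencing, rose (0.63, adjusted p = 0.024). Suv39h1, a histone H3 lysine 9 methyltransferase (-0.46, adjusted p = 0.045), Chaf1b, a histone chaperone subunit (-0.42, adjusted p = 0.046), and Tet3 (-0.39, adjusted p = 0.039) fell. Trim28 (log2 fold change -0.13) and Setdb1 (-0.08), the co-repressor and the histone methyltransferase recruited by KRAB zinc-finger proteins, Uhrf1 (-0.25), the partner that brings DNMT1 to hemimethylated DNA, and Zfp932 (-0.05) and Gm15446 (-0.05), zinc-finger genes known for binding ERVK elements, were all within the 2-fold limit and did not pass the adjusted p.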

How the data were processed

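RNA of 3 control and 3 Dnmt1Δ/Δep keratinocyte cultures, each from a separate mouse, was measured, and libraries were grouped by their labels. Both count tables used here were deposited by the authors as raw counts. For the repeats, the authors aligned with bowtie against MGSCv37, and RepEnrich gave both unique and multi-mapping reads a repeat name, so reads of near-identical names can be divided between them. For the genes, the authors counted uniquely mapped reads with STAR and htseq-count, and reads assigned to no gene (8.73% to 12.9%) were left out. The labels name GRCm38 and the paper names another build for the gene alignment, and positions of genes were taken from GENCODE M21 (GRCm38). Of 43629 gene identifiers, 42462 matched a symbol. The authors' own comparison tables (means, fold changes, p-values and normalized counts) were not used.

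Counts were tested with edgeR 4.0.16 in R 4.3.3 (quasi-likelihood, TMM, filterByExpr with minimum counts of 10 and 15), with no block. The script was tested on simulated counts. Standard errors are the size of the log2 fold change divided by the square root of F. TMM factors of the repeats were 1.33 to 1.48 in control and 0.610 to 0.796 in Dnmt1Δ/Δep. The floor of 3 reads was 0.139 to 0.410 CPM. Intervals and floors cover counting error only. Replicate numbers paired the libraries: each number was run on its own lane, per the file headers, and libraries of 1 number departed together from their groups, with correlations of their deviations of 0.63, 0.48 and 0.46 over repeats, 0.43, 0.28 and 0.30 over genes.

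The members and gene lists were chosen with earlier results of these data known. The names described were all ETn, MMERVK, MYSERV and MMTV names, all called names and, in the other families, the name with the most reads, the largest rise and the largest fall. A further 15 names, relatives of these or names near a threshold, were added after their values were seen. DESeq2 1.42.0, library sizes from gene reads, upper-quartile factors, no filter, a replicate block and leaving out libraries were the alternatives.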

Additional observations from a re-analysis of the deposited data

How the results depend on the processing

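Of the 16 upregulated names, 12 were called under each of the 12 alternatives. The exceptions were RLTR13C1, RLTR44-int and RLTR44A, which each lost the call in some settings, and ERVB4_3-LTR_MM, which did not pass the low-count filter without Dnmt1Δ/Δep replicate 2 or 3. The count was 19 with library sizes from gene reads (adding ERVB4_1-I_MM-int, ERVB4_2-I_MM-int and RLTR45-int), 13 with upper-quartile factors, 16 with DESeq2 and without a filter, 18 with the replicate block (adding ERVB2_1-I_MM-int and ERVB4_1-I_MM-int), 13 to 16 when 1 library was left out (lowest without Dnmt1Δ/Δep replicate 3) and, an alternative chosen after seeing the data, 17 without replicate 1 of both groups. ERVB2_1-I_MM-int and ERVB5_1-I_MM-int gained the call in that setting (3.46 and 1.13) and without control replicate 1 (3.68 and 1.01). No alternative called a downregulated name, and the replicate block changed no other call at 2-fold. With the adjusted p alone the block moved the names that rose from 18 to 34 and those that fell from 0 to 4. Gene library sizes moved the median of all names by 0.38 and upper-quartile factors by -0.24. Signs of small, uncalled values turned: with gene library sizes ERVB3_1-LTR_MM was 0.24, ERVB4_3-I_MM-int 0.11, MYSERV-int 0.10, MYSERV6-int 0.17, RLTR17B_Mm 0.03, RLTR17D_Mm 0.15, RLTR20B4_MM 0.02, RLTR20C1_MM 0.15 and RLTR44C 0.07, and with upper-quartile factors MYSERV16_I-int was -0.04, ERVB4_1B-LTR_MM -0.02 and RLTR13C3 -0.19. Leaving out 1 library gave -0.89 to 0.45 for ERVB5_2-LTR_MM, -0.45 to 0.24 for MYSERV-int, -0.05 to 0.16 for RLTR13C3, -1.23 to 0.31 for RLTR13D1, -0.43 to 0.25 for RLTR17D_Mm, -0.94 to 0.55 for RLTR9F and -0.04 (without Dnmt1Δ/Δep replicate 1) to 0.64 for the log2 ratio of the MYSERV reads per 100 gene reads. Without replicate 1 of both groups ERVB5_2-LTR_MM was 0.07, MYSERV-int 0.12, RLTR17D_Mm 0.07 and RLTR9F 0.15. The log2 ratio of family reads per 100 gene reads was 1.32 over all names, and as a share of repeat reads it was 0.00, with -1.05 for MYSERV, -0.37 for MMTV, -0.57 for ERVB, -0.66 for RLTR13, -0.24 for RLTR17, -1.13 for RLTR20 and -0.06 for RLTR44. The cause of these turns was not tested. Depth limits names with few reads, such as ERVB4_3-LTR_MM with 1 to 3 control reads.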

Other observations

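The 16 upregulated names were not spread evenly over the Dnmt1Δ/Δep libraries. Replicate 1 was the lowest of the 3 for 11 of them and replicate 2 the highest for 12. In control, replicate 1 was likewise the lowest for 10, and the highest library was replicate 1 for 5 names, replicate 2 for 6 and replicate 3 for 5. The ratio of the highest to the lowest Dnmt1Δ/Δep library ran from 1.18 for ERVB4_2-LTR_MM and MMERVK10D3_I-int to 2.24 for RLTR9C. The 4 LTR names of the RLTR9 and RLTR13 families had ratios of 1.63 to 2.24, and MMERVK10C-int one of 1.24. These counts depend on the scaling between libraries, and no test was made of them.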
